A study of Rattus norvegicus with 6 samples.

Results

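Among the 26319 genes of the deposited counts, 10 were examined here: 7 genes by which macrophages are recognised and the 3 chains of complement C1q. They are EMR1 (the human symbol the authors' tables use for ADGRE1, the F4/80 antigen), CSF1R, TYROBP, FCER1G, CD68, CD14, AIF1, C1QA, C1QB and C1QC. Each was found by its symbol in the authors' comparison tables, each matched 1 Ensembl gene, and all 10 were among the 13426 genes that passed the filter on low counts. The libraries hold messenger RNA from glomeruli, the capillary tufts where the kidney filters blood, which were isolated from Sprague Dawley rats; there were 3 groups, each with 2 libraries. Wild-type rats (WT) labelled as vehicle-treated were 20.4 and 21.9 weeks old. Transgenic rats, labelled AT1R Tg after the receptor for angiotensin II that they carry, had received vehicle (20.4 and 17.4 weeks) or the TRPC5 channel blocker AC1903 (23.0 and 20.4 weeks). Replicate 1 is given first in each pair. The labels give neither the promoter that drives the transgene nor the dose of AC1903. Ages differed within each group, so the 2 libraries of a group came from different rats.

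Macrophages live in most tissues, depend on signals through the receptor CSF1R, and clear dead cells and immune complexes. In the kidney they sit mainly between the tubules, and few are found in healthy glomeruli. Many of their surface receptors cannot signal alone and pair with the small adaptors TYROBP or FCER1G, whose cytoplasmic tails are phosphorylated and recruit the kinase SYK. C1q starts the classical complement pathway by binding antibody complexes or dying cells, and unlike most complement proteins, which come from the liver, it is made largely by macrophages and dendritic cells.

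Library totals ran from 12325515 to 36026772 expected counts and were higher in both WT libraries than in all 4 AT1R Tg libraries. Levels are given as CPM, the counts of a gene relative to the library total after scaling by the trimmed mean of M values. At these depths 3 counts, the most that a count of 0 allows, correspond to 0.0813 to 0.25 CPM, and every one of the 10 genes had at least 25 counts in each library. Mitochondrially encoded genes took 22.3% to 40.5% of counts, the most in vehicle replicate 2. In these whole-glomerulus preparations, more macrophages and more RNA per macrophage cannot be told apart.

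With AC1903, 4 of the 10 genes stood well above vehicle: EMR1 and TYROBP at 3.31-fold and 3.39-fold, and CSF1R and FCER1G at 2.49-fold each. CD68, CD14, AIF1 and the 3 C1q chains differed by 1.11-fold to 1.79-fold, and the 95% interval of each of these 6 included no difference. The vehicle and AC1903 groups also differed in age. Vehicle replicate 2 had the highest mitochondrial share (40.5%) and the highest summed level of proximal tubule markers (11008 CPM). The part of mitochondrial share and tubule content in these values was not tested. All 10 log2 changes were above 0, against 47.9% of all genes tested; with age as a covariate that of C1QA was -0.087. For 7 of the 10 both AC1903 libraries lay above both vehicle libraries, against 19.9% of all genes tested. For 4 of the 10 the unadjusted p was under 0.05 in edgeR's quasi-likelihood test, against 5.35% of all genes tested that were higher at that level. None passed an adjusted p of 0.05, and neither did any of the 13426 genes (0%), although 1090 of them (8.12%) had an unadjusted p under 0.05 and limma-voom also called none. DESeq2 called EMR1 (adjusted p = 0.00479) and TYROBP (adjusted p = 0.0393) among the 0.439% of genes it called higher. In the authors' deposited table the same 2 genes passed, with adjusted p = 0.00758 for EMR1 and 0.0126 for TYROBP, where 0.369% of the listed genes passed and were higher. Without AC1903 replicate 2, which held the most of both leukocyte genes PTPRC and ITGB2, only EMR1 kept an unadjusted p under 0.05 among the 10 (1 gene in place of 4; 3.66% of all genes tested were then higher at that level).

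**Figure D1:**
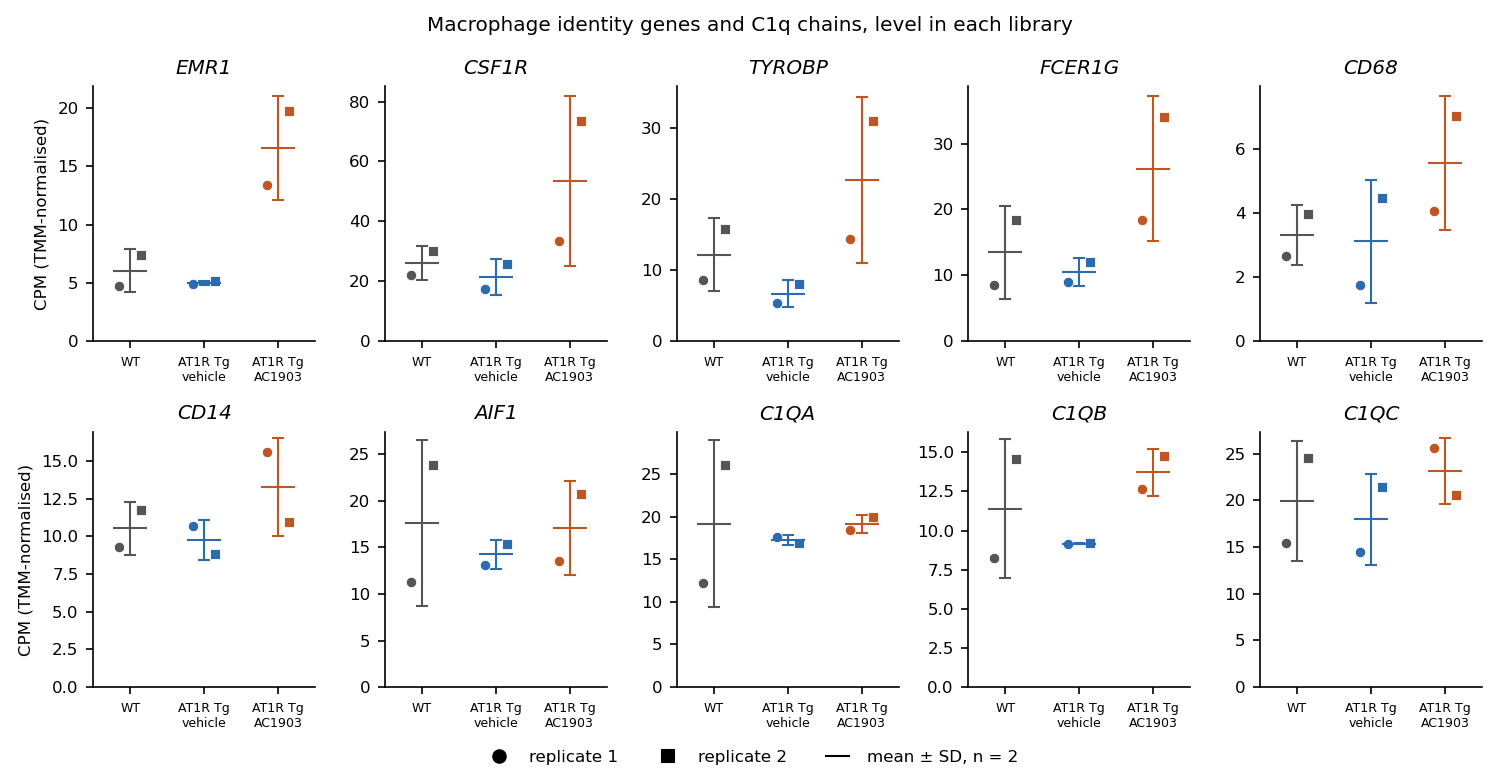
Level of each of the 10 genes in each of the 6 libraries, in CPM on a linear axis from 0; circles are replicate 1, squares replicate 2, and horizontal marks with bars the mean ± SD (n = 2). Both AC1903 libraries lie above the other 4 for EMR1 and CSF1R, whereas WT alone spans most of the range for AIF1 and C1QA.

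EMR1 and CSF1R were the 2 members whose AC1903 libraries both lay above all 4 other libraries. EMR1 (ENSRNOG00000046254) encodes an adhesion G protein-coupled receptor used as a macrophage marker in rodents, and in the RefSeq annotation its span overlaps the pseudogene Hspa14-ps1 and an uncharacterised gene. It stood at 4.74 and 7.40 CPM in WT, 4.88 and 5.13 in vehicle and 13.4 and 19.7 in AC1903. The WT and vehicle values overlapped, and the lower AC1903 library was well above the highest of the others. Its log2 change from vehicle to AC1903 was 1.73 with SE 0.33 (edgeR adjusted p = 0.518, rank 17 of 13426 by p).

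CSF1R (ENSRNOG00000018414), the receptor for the growth factors CSF1 and IL34 that macrophages need to survive, stood at 22.2 and 30.2 CPM in WT and 17.3 and 25.8 in vehicle. In AC1903 it stood at 33.4 and 73.5 CPM. The 2 AC1903 libraries lay further apart than any pair of the other groups, and replicate 2 held most of the difference. The log2 change was 1.31 with SE 0.37 (edgeR adjusted p = 0.549), and it was 0.59 with SE 0.33 without AC1903 replicate 2. In the rat RefSeq annotation (GRCr8) the span of CSF1R overlaps no other listed gene. Of 5 tested genes for its ligands and for related growth factor receptors 4 were higher, with a median log2 change of 0.12, and 1 of them, CSF3R, the neutrophil growth factor receptor gene, had an unadjusted p under 0.05. The ligand genes were picked for their role after their values were seen. CSF1 had a log2 change of 0.12 with SE 0.21 (edgeR adjusted p = 0.888), and IL34 stood at 12.3 and 17.99 CPM in vehicle and 15.6 and 14.7 in AC1903.

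TYROBP and FCER1G, the adaptors, showed the same order of groups by mean: vehicle lowest, WT between and AC1903 highest. All other members but AIF1 and C1QA shared this order. TYROBP (ENSRNOG00000020845), also called DAP12, carries the signals of TREM and natural killer receptors. It stood at 8.58 and 15.8 CPM in WT, 5.38 and 8.06 in vehicle and 14.4 and 31.0 in AC1903. Vehicle lay below both other groups without overlap, and AC1903 overlapped WT. The log2 change from vehicle to AC1903 was 1.76 with SE 0.44 (edgeR adjusted p = 0.538), and without AC1903 replicate 2 it was 1.06 with SE 0.45.

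FCER1G (ENSRNOG00000024159) is the shared gamma chain of the activating Fc receptors, which bind antibodies. It stood at 8.51 and 18.4 CPM in WT, 9.06 and 12.05 in vehicle and 18.4 and 34.0 in AC1903. The vehicle libraries lay within the WT range, and AC1903 lay above vehicle and reached down to the upper WT library. The log2 change from vehicle to AC1903 was 1.31 with SE 0.42 (edgeR adjusted p = 0.549), and without AC1903 replicate 2 it was 0.76 with SE 0.47.

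For CD68, CD14 and AIF1 the log2 difference between AC1903 and vehicle was smaller than the widest log2 gap between libraries of 1 group. CD68 (ENSRNOG00000037563), a lysosomal membrane glycoprotein of phagocytes, was the member with the fewest counts, from 25 to 147. It stood at 2.66 and 3.98 CPM in WT, 1.77 and 4.48 in vehicle and 4.08 and 7.03 in AC1903. The vehicle pair overlapped both other groups, and the log2 change with AC1903 was 0.84 with a 95% interval of -0.41 to 2.08. It was 0.31 without vehicle replicate 1 and 1.64 without vehicle replicate 2.

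CD14 (ENSRNOG00000017819), which hands bacterial lipopolysaccharide to toll-like receptor 4, stood at 9.29 and 11.8 CPM in WT, 10.7 and 8.79 in vehicle and 15.6 and 10.95 in AC1903. Here AC1903 replicate 1 was the highest library and replicate 2 lay inside the WT range, the reverse of the order seen for EMR1 and CSF1R. The log2 change with AC1903 was 0.44 with SE 0.28 (edgeR adjusted p = 0.671).

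AIF1 (ENSRNOG00000000853), the calcium-binding protein Iba1 that is used to stain macrophages and microglia, stood at 11.3 and 23.9 CPM in WT, 13.2 and 15.4 in vehicle and 13.6 and 20.7 in AC1903. Both transgenic groups lay within the WT range. The log2 change with AC1903 was 0.26, with a 95% interval of -0.57 to 1.10, and it was -0.11 without AC1903 replicate 2.

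The 3 C1q chains assemble in equal numbers into one molecule, and their genes lie side by side in the rat RefSeq annotation in the order C1qb, C1qc, C1qa with no other listed gene between them. Of the 10 genes 6 were found in the RefSeq promoter table (GRCr8). The stretches upstream of Adgre1, Cd68, C1qa and C1qb are shown so that EMR1, a marker with a larger difference between AC1903 and vehicle, can be set beside CD68 and the C1q chains, which had smaller ones. Each is printed 5′ to 3′ on the gene's strand and ends at the base before the annotated gene. Capitals mark GGAAGT or GAGGAA, or their reverse complements ACTTCC or TTCCTC, short cores bound by ETS factors such as PU.1 (SPI1), a transcription factor of macrophage development; both motifs were chosen after the sequences were seen.
Adgre1, GRCr8 chr9:2329190-2329397, plus strand: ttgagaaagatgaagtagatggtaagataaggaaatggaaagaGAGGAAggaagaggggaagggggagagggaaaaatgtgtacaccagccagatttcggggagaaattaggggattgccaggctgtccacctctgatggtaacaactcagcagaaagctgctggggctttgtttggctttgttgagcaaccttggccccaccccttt
Cd68, GRCr8 chr10:54882442-54882691, minus strand: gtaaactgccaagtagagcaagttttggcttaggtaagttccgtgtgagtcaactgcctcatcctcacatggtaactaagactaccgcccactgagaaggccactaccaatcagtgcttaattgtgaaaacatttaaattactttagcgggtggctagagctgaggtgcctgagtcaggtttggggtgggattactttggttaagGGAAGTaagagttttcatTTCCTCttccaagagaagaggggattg
C1qa, GRCr8 chr5:154419934-154420183, minus strand: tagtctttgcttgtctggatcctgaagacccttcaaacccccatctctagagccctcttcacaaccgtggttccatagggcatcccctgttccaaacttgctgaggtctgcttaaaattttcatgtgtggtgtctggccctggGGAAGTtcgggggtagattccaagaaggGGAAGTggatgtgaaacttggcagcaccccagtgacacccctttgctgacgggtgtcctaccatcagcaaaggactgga
C1qb, GRCr8 chr5:154407828-154408077, minus strand: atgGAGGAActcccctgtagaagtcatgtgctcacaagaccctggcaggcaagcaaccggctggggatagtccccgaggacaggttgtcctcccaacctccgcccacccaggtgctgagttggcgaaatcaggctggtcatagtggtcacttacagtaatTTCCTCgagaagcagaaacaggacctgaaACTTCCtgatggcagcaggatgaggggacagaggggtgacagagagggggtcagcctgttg
Within 250 bases before the start used in that table, GGAAGT on either strand was found in 3 of the 6 member promoters (Cd68, C1qa and C1qb) and in 19.2% of all 33469 promoters. GAGGAA on either strand was found in 5 of the 6 (all but C1qa) and in 23.3% of all promoters. The 2 motifs can overlap, and at least 1 of them was found in 6 of 6 and in 36.7% of all promoters. For Csf1r and Cd14, however, 23 and 0 bases of the window lay outside the annotated gene, and these held no match. The matches counted for these 2 genes therefore lay within the annotated gene or across its edge. TGANTCA, an AP-1 motif also searched on both strands, was found in 1 of the 6 (Cd68) and in 6.34% of all promoters. These matches are letters in a window and not measured binding.

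C1QA (ENSRNOG00000012807) stood at 12.2 and 26.1 CPM in WT, 17.6 and 16.8 in vehicle and 18.4 and 19.9 in AC1903. All 4 transgenic libraries lay within the WT range. The log2 change from vehicle to AC1903 was 0.15 with SE 0.33 (edgeR adjusted p = 0.914), and its 95% interval ran from -0.60 to 0.90, that is from 0.661-fold to 1.87-fold.

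C1QB (ENSRNOG00000012749) stood at 8.25 and 14.6 CPM in WT, 9.13 and 9.20 in vehicle and 12.6 and 14.8 in AC1903. Both AC1903 libraries lay above both vehicle libraries, with WT spanning nearly the whole range. The log2 change was 0.58 with SE 0.31 (edgeR adjusted p = 0.652) and a 95% interval of -0.12 to 1.29. C1QC (ENSRNOG00000012804) stood at 15.4 and 24.5 CPM in WT, 14.5 and 21.4 in vehicle and 25.6 and 20.6 in AC1903, with all 3 groups overlapping, and had a log2 change of 0.37 with SE 0.29 (edgeR adjusted p = 0.721). Summed over the 3 chains, C1q stood at 35.9 and 65.1 CPM in WT, 41.3 and 47.5 in vehicle and 56.6 and 55.3 in AC1903. The summed level of the 7 identity genes was 67.3 and 112 CPM in WT, 62.2 and 79.7 in vehicle and 113 and 197 in AC1903, so the highest library was AC1903 replicate 2 for the identity genes and WT replicate 2 for C1q.

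**Figure D2:**
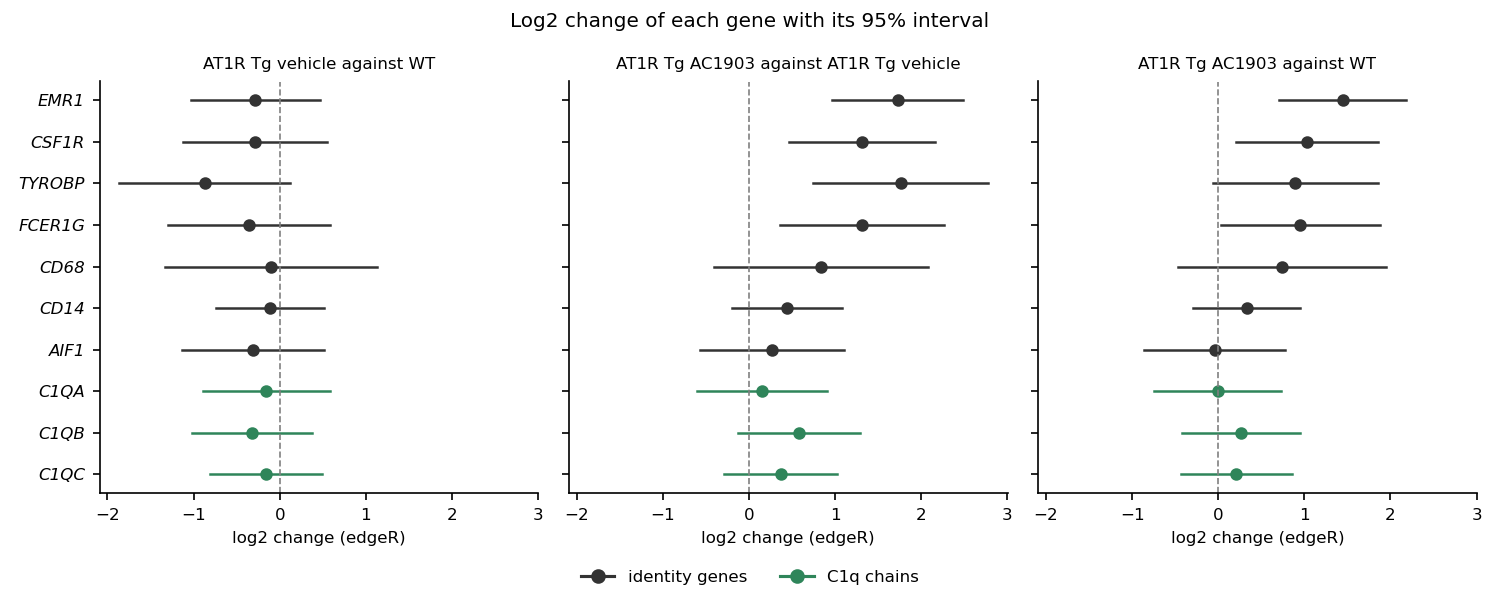
Log2 change of each of the 10 genes in the 3 comparisons with its 95% interval from edgeR; dark points are the 7 identity genes and green points the 3 C1q chains. In AC1903 against vehicle the intervals of EMR1, CSF1R, TYROBP and FCER1G lie above 0 and those of the other 6 genes cross it; in vehicle against WT every interval crosses 0.

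Vehicle-treated AT1R Tg rats were compared with WT for differences that go with the transgene; the groups also differed in age and library depth. All 10 genes were lower in vehicle by mean, with log2 changes from -0.87 (TYROBP) to -0.10 (CD68) and a median of -0.28, while 53.4% of all genes tested were lower and their median was -0.029. None passed in edgeR, where 0.0745% of all genes did, none passed in DESeq2 (4.25% of all genes) and none had an unadjusted p under 0.05 (11.9% of all genes). TYROBP alone had groups that did not overlap, against 23.4% of all genes that were lower without overlap, and its log2 change was -0.87 with SE 0.43 (edgeR adjusted p = 0.492). In the authors' deposited table the adjusted p of the 10 genes ran from 0.464 to 0.987, and 4.42% of its genes passed. Pan-leukocyte genes, which macrophages share, were lower in vehicle too, in 15 of 15 (median log2 change -0.46). So were neutrophil markers in 4 of 4 (-1.72) and erythroid gene IDs in 7 of 8 (-2.09). Proximal tubule markers were higher in 14 of 14 (1.35). Mast cell, basophil and eosinophil markers were higher in 2 of 3, and edgeR called 1 of these, EPX (log2 change 5.65). EPX stood at 0.0718 and 0.488 CPM in WT and 19.6 and 10.9 in vehicle. The part of all these cells in the values of the 10 genes was not tested. The direction of the set rested on WT replicate 2, the deepest library: without it 8 of the 10 changes were above 0 and the median was 0.18. Single genes were above 0 in other settings too: CD68 (0.42) and C1QC (0.097) without vehicle replicate 1, and CD14 (0.022) without vehicle replicate 2.

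AC1903-treated rats were also set against WT; both AC1903 comparisons use the same 2 AC1903 libraries. By mean 8 of the 10 genes were higher (50.2% of all genes tested), with a median log2 change of 0.53. EMR1 stood 2.72-fold higher, with a log2 change of 1.44 and SE 0.32 (edgeR adjusted p = 0.309), and was the 1 member that DESeq2 called (adjusted p = 0.0125), where it called 0.879% of genes higher. EMR1, CSF1R and FCER1G had an unadjusted p under 0.05 in edgeR (6.92% of all genes were higher at that level), and none passed after adjustment (0.0372% of all genes passed). Groups did not overlap for EMR1, CSF1R and CD68, against 24.2% of all genes. AIF1 and C1QA had log2 changes of -0.042 and -0.004, with 95% intervals of -0.86 to 0.78 and -0.74 to 0.73. Without WT replicate 2 the AC1903 libraries lay above WT for 10 of the 10 genes (33.8% of all genes tested), and without WT replicate 1 for 3 (36.6%).

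Levels were then divided by that of PTPRC (CD45), the phosphatase on the surface of all leukocytes, within each library. Gene length is not divided out, so such ratios compare libraries and not genes. PTPRC itself stood at 16.7 and 19.8 CPM in WT, 12.7 and 14.2 in vehicle and 33.9 and 56.9 in AC1903, and was called by DESeq2 between AC1903 and vehicle (log2 change 1.75 with SE 0.26, edgeR adjusted p = 0.446). The ratio of EMR1 to PTPRC was 0.283 and 0.373 in WT, 0.383 and 0.360 in vehicle and 0.396 and 0.347 in AC1903. EMR1 and PTPRC thus kept nearly the same proportion in both transgenic groups, with a mean log2 difference of -0.004 in this ratio between AC1903 and vehicle. For TYROBP that difference was -0.022, with overlapping groups.

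The other 8 genes were lower relative to PTPRC in both AC1903 libraries than in both vehicle libraries, as were 92.1% of all genes tested, whose median log2 difference was -1.72. The mean log2 difference was -0.474 for CSF1R, -0.446 for FCER1G and -0.776 for CD68. It was -1.27 for CD14 and -1.47 for AIF1. For C1QA, C1QB and C1QC it was -1.55, -1.13 and -1.32. The ratio of C1QA to PTPRC was 0.732 and 1.31 in WT, 1.38 and 1.18 in vehicle and 0.543 and 0.350 in AC1903. Scaling the libraries by the 15 genes of the pan-leukocyte list shifts every gene alike. The median for AC1903 against vehicle was then -0.748 for the 10 members and -1.5 for all genes tested, and for vehicle against WT it was 0.365 and 0.547.

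Within the list itself, EMR1 relative to summed C1q stood at 0.132 and 0.114 in WT, 0.118 and 0.108 in vehicle and 0.236 and 0.357 in AC1903. The AC1903 libraries lay above the other 4, and the mean log2 difference from vehicle was 1.36. The corresponding difference was 1.34 for TYROBP, 0.919 for FCER1G and 0.891 for CSF1R, each without overlap between AC1903 and vehicle; 5.65% of all genes tested were higher without overlap relative to summed C1q. AIF1 and CD14 kept closer to C1q, with mean log2 differences of -0.104 and 0.0901 and overlapping groups. Among the chains, the ratio of C1QA to C1QB ran from 1.35 to 1.93 over the 6 libraries, an SD of 0.214 in log2 units, and was lower in both AC1903 libraries than in both vehicle libraries. With 2 libraries against 2 an exact permutation test cannot give a p below 0.3333, so none of these ratios was tested.

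**Figure D3:**
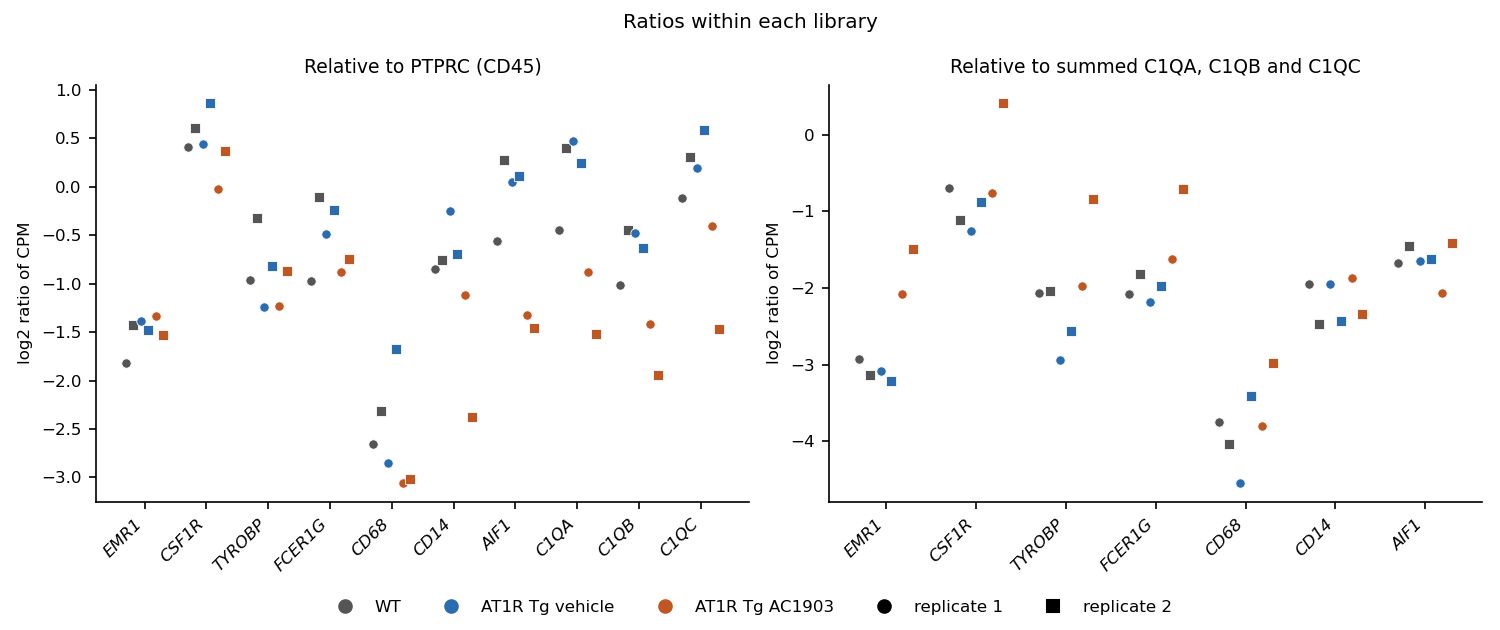
Log2 ratio of each gene's CPM to that of PTPRC (left) and to the summed CPM of the 3 C1q chains (right) in each library, colours showing the group and shapes the replicate. On the left the AC1903 points of CD14, AIF1 and the C1q chains lie below those of vehicle while EMR1 stays level; on the right the AC1903 points of EMR1 and TYROBP lie above vehicle while CD14 and AIF1 overlap it.

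Possible partners of the adaptors were examined through lists of genes grouped by role. A list drawn up for receptors that pair with TYROBP or FCER1G matched 8 tested gene IDs, of which 5 carry an FCGR2 symbol, and 12 of its 17 symbols could not be paired with an ID. FCGR2B is on the list but signals through its own inhibitory motif and pairs with neither adaptor. Without the entries that carry its symbol 4 gene IDs were left, among them CLEC7A and 1 entry with an FCGR2 symbol. Whether each of these 4 pairs with either adaptor was not checked, so their values are not a result about adaptor partners. All 4 were higher with AC1903 than with vehicle, with a median log2 change of 1.06 against -0.02 over all genes tested. Of the 4, 2 had an unadjusted p under 0.05. Of all 8 gene IDs 7 were higher, and the 1 that was lower (log2 change -0.078) carries the FCGR2B symbol. DESeq2 called FCGR3A (adjusted p = 0.00398) and 1 FCGR2B entry (adjusted p = 0.0134). FCGR3A, an activating Fc receptor that signals through FCER1G, stood at 5.56 and 8.51 CPM in WT, 3.18 and 5.29 in vehicle and 12.9 and 19.1 in AC1903 (log2 change 1.92 with SE 0.38, edgeR adjusted p = 0.518). The FCGR2B entry called by DESeq2 stood at 3.77 and 5.64, 4.46 and 3.5, and 9.65 and 21.1 CPM in the same order (edgeR adjusted p = 0.538). Fc receptor genes resemble one another, and expected counts divide reads between similar genes. The fungal receptor gene CLEC7A had a log2 change of 1.02 with SE 0.41 (edgeR adjusted p = 0.606).

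Of 13 tested genes that act downstream of these adaptors 12 were higher, with a median log2 change of 0.70, and 7 had an unadjusted p under 0.05. None was called by DESeq2. The adaptor LCP2 stood at 3.75 and 2.69 CPM in vehicle and 5.24 and 12.1 in AC1903, and INPP5D, a lipid phosphatase that restrains the same pathway, at 26.3 and 27.8 and at 42.0 and 43.4 CPM. SYK, the kinase that binds the adaptors, had a log2 change of 0.30 with SE 0.25 (edgeR adjusted p = 0.731).

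Partners of C1q were divided in direction. Of 13 tested genes of the classical pathway and C1q receptors 6 were higher and 7 lower with AC1903, with a median of -0.14, and DESeq2 called none. C1R and C1S encode the proteases that C1q activates. C1R stood at 21.3 and 19.4 CPM in vehicle and 15.1 and 21.7 in AC1903, and C1S at 11.25 and 7.0 and at 10.5 and 19.7 CPM. C3, the component on which all complement pathways converge, stood at 1.49 and 4.15 CPM in vehicle and 4.24 and 13.9 in AC1903 (edgeR adjusted p = 0.602). The gene listed as C4A and C4B stood at 9.48 and 17.2 CPM in vehicle and 6.49 and 4.32 in AC1903 (edgeR adjusted p = 0.549).

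Of 10 tested partners of CD14 and toll-like receptor 4, 8 were higher with a median log2 change of 0.43, none with an unadjusted p under 0.05; TLR2, a receptor for bacterial lipoproteins, had the smallest p (log2 change 1.12 with SE 0.50, edgeR adjusted p = 0.612). Of 14 tested transcription factors of macrophages 13 were higher with a median of 0.43, and 3 had an unadjusted p under 0.05. SPI1, which encodes PU.1, stood at 3.26 and 1.95 CPM in vehicle and 3.24 and 12.8 in AC1903, the difference lying in AC1903 replicate 2 alone. Lysosomal and phagocytic genes, which most kidney cells express, were higher in 6 of 24 and had a median of -0.19. CYBB, the catalytic subunit of the phagocyte oxidase, was the 1 gene of that list that DESeq2 called: it stood at 11.6 and 7.49 CPM in vehicle and 17.97 and 45 in AC1903.

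Other markers of resident macrophages were higher in 12 of 13 tested, with a median log2 change of 0.99 and 5 at an unadjusted p under 0.05. MRC1, the mannose receptor, stood at 2.84 and 2.74 CPM in WT, 2.55 and 2.36 in vehicle and 6.74 and 5.04 in AC1903, and here replicate 1 was the higher AC1903 library. CX3CR1, the fractalkine receptor, stood at 1.84 and 2.36 CPM in vehicle and 2.41 and 7.35 in AC1903. MPEG1, which encodes a pore-forming protein of macrophages, stood at 7.43 and 9.28 and at 11.2 and 38.4 CPM. CD163 and TREM2, among other defining markers, could not be paired with a symbol and are not analysed here.

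Markers of monocytes and inflamed macrophages were higher in 11 of 13 tested, with a median of 0.98 and 4 at an unadjusted p under 0.05. IL1B, the inflammatory cytokine, stood at 2.98 and 4.72 CPM in WT, 0.35 and 2.03 in vehicle and 5.07 and 13.8 in AC1903, and was the 1 gene of the list called by DESeq2 (adjusted p = 0.0195). LYZ, lysozyme, stood at 139 and 188 CPM in vehicle and 215 and 661 in AC1903. Gene IDs of MHC class II and dendritic cells were higher in 11 of 15 with a median of 0.36; CD74, the class II chaperone, stood at 199 and 255 CPM in vehicle and 220 and 214 in AC1903. Chemokines and adhesion molecules that draw in monocytes were higher in 6 of 11, with a median of 0.11, and DESeq2 called none; the endothelial selectin SELE had the smallest p among them (log2 change 1.52 with SE 0.43, edgeR adjusted p = 0.549).

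**Figure D4:**
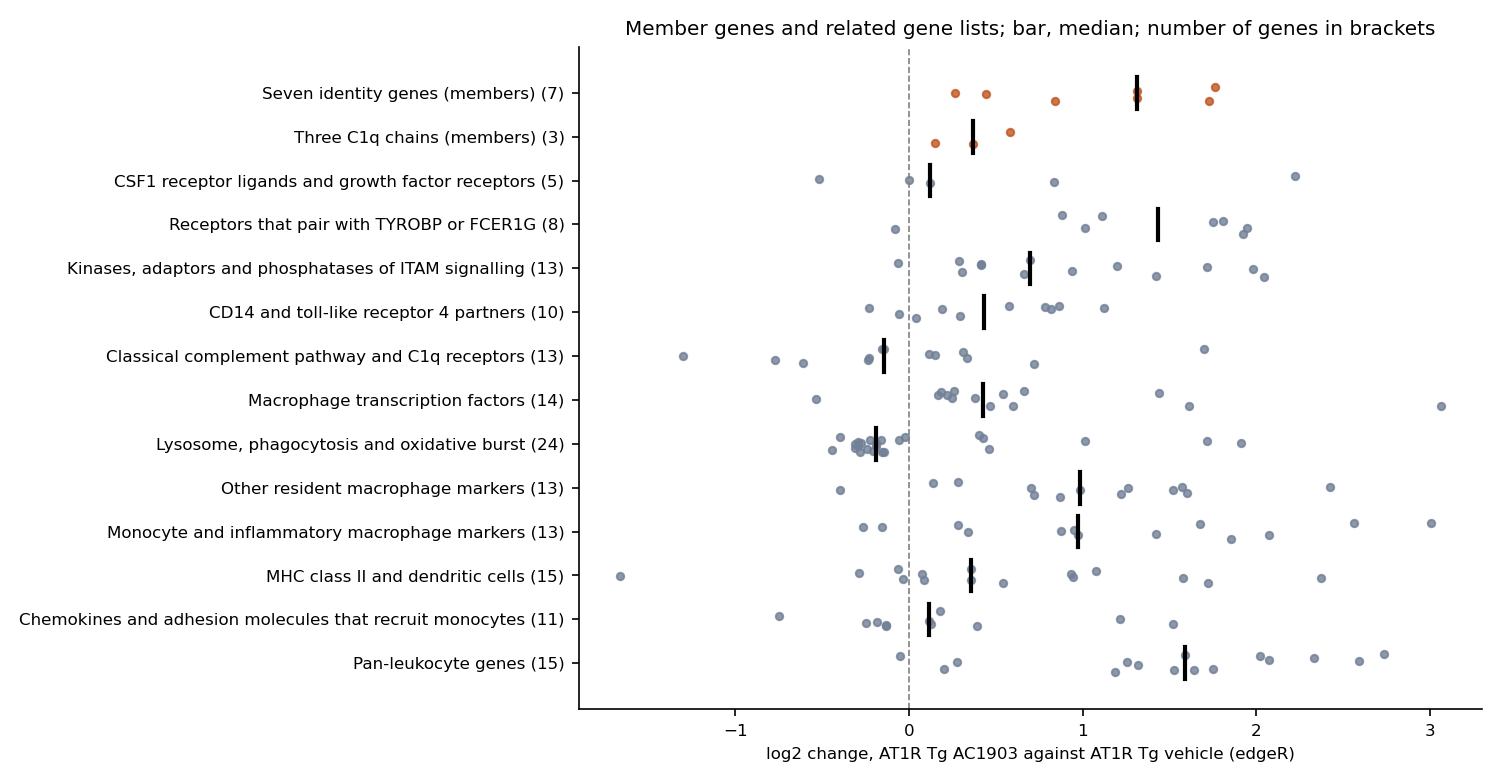
Log2 change from AT1R Tg vehicle to AT1R Tg AC1903 of the members (orange) and of the tested genes of 12 related lists (grey, members left out), with the median as a bar. The medians of the receptor list, which includes FCGR2B (1.43), and of the pan-leukocyte genes (1.59) lie near that of the 7 identity genes (1.31), and those of the classical complement and lysosome lists lie below 0.

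The genes whose level followed the mean of the 10 members most closely over the 6 libraries were ranked by the root mean square difference between log2 profiles, each centred on its own mean. The closest of all genes with a symbol was CLEC4A, a C-type lectin of dendritic cells and macrophages, with a difference of 0.0621 log2 units. It stood at 5.02 and 8.65 CPM in WT, 4.46 and 5.62 in vehicle and 7.74 and 10.8 in AC1903. The next were the macrophage elastase MMP12 (0.129), the peptide transporter TAP1 (0.14), TRIP13 (0.141), NUP210 (0.143), CASP12 (0.144), IKBKE (0.147), CFB (0.155), GBP2 (0.161) and SLC9B2 (0.163). Complement factor B, CFB, stood at 8.36 and 14.3 CPM in WT, 7.43 and 10.3 in vehicle and 13.7 and 25.02 in AC1903. The members themselves lay 0.175 (C1QB) to 0.406 (EMR1) from their own mean. The 10 named genes, picked as the closest of 12292 ranked, were closer to the mean profile than any member was. Of these, TRIP13 and SLC9B2 had low levels, at 0.6369 and 0.7785 CPM in vehicle replicate 1.

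Genes of the pan-leukocyte list, which macrophages share, and markers of other cell types moved with some of these values. The pan-leukocyte genes were higher with AC1903 in 14 of 15 tested, 12 with an unadjusted p under 0.05 and 5 called by DESeq2. Their summed level was 386 and 410 CPM in vehicle and 549 and 778 in AC1903. T and natural killer cell markers, of which 6 of 16 could be paired, summed to 11.8 and 10.5 CPM in vehicle and 20.05 and 16.5 in AC1903, and the 2 paired B cell markers to 0.495 and 1.3 and to 1.5 and 1.12 CPM. TYROBP and FCER1G are also expressed by natural killer, mast and neutrophil cells; of 4 tested neutrophil markers S100A8, S100A9 and CSF3R (3 of 4) were higher with AC1903 at an unadjusted p under 0.05. CSF3R stood at 2.30 and 2.66 CPM in WT, 0.849 and 1.14 in vehicle and 2.33 and 6.95 in AC1903. S100A8 was at most 1.84 CPM, in AC1903 replicate 2, S100A9 at most 2.79, in WT replicate 2, and MMP9, the marker that was lower, at most 220.0 CPM. In vehicle S100A8 had 5 and 1 counts and S100A9 had 7 and 6, so both rises started from very few counts. Mast cell, basophil and eosinophil markers were higher in 1 of 3. Erythroid gene IDs were higher in 8 of 8 by mean, none with an unadjusted p under 0.05, and the haemoglobin gene HBA2 stood at 35.0 CPM in AC1903 replicate 1 and 1.92 in replicate 2, whereas EMR1 stood at 13.4 and 19.7 CPM in these libraries. Proximal tubule markers, 14 of 15 tested, summed to 3941 and 2471 CPM in WT, 5688 and 11008 in vehicle and 5835 and 5793 in AC1903, and all 14 were lower with AC1903 than with vehicle by mean. Markers of the loop of Henle, distal tubule and collecting duct were higher in 10 of 13, of which 5 had an unadjusted p under 0.05, and summed to 482 and 490.2 CPM in vehicle and 709 and 662 in AC1903. Podocyte markers were higher in 6 of 12, glomerular endothelial markers in 9 of 12 and mesangial and smooth muscle markers in 2 of 9, none with a DESeq2 call. The part of these cell types in the values of the 10 genes was not tested.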

How the data were processed

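The authors deposited expected counts per Ensembl gene. STAR (2.5.2b), RSEM (1.3.0) and the rat build Rnor_5.0 are named per the submitters' processing notes. A stranded mRNA kit was used per the labels' protocols; the annotation release, read filters and strand setting were not given in the sources used here. For 2 comparisons the authors' deposited tables hold log2 fold changes and adjusted p-values, per the file headers. The tool behind these p-values was not stated.

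Groups, replicates and ages came from the sample labels. Expected counts were rounded to whole numbers, filtered with filterByExpr by group and given trimmed-mean-of-M scaling factors. Of 26319 genes 13426 were tested. All 6 libraries entered edgeR's two-sided quasi-likelihood test (edgeR 4.0.16, R 4.3.3), which left 3 residual degrees of freedom. P-values were adjusted by Benjamini-Hochberg across the 13426 genes and called under 0.05. The test was first run on simulated counts in which genes varied independently, without shifts shared by many genes of a library. The 95% intervals use the moderated degrees of freedom, SE is the log2 change over the root of the F statistic, and log2 CPM for profiles used a prior count of 2. Folds are powers of 2 of the fitted log2 changes.

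The 2 libraries of a group differed by more than sampling noise (chi-square per degree of freedom 19.5 to 96.4), so each counted as 1 replicate. The smallest group size allows no permutation p under 0.3333. The alternatives were DESeq2 (1.42.0), limma-voom (3.58.1), 2 other scalings, 2 other filters, only the groups compared, a replicate block, age as a covariate, leaving out each library and scaling by pan-leukocyte genes.

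The members and lists were chosen with earlier results of these data known. Named were all 10 members, any list gene past the threshold, up to 3 others per list by smallest p between AC1903 and vehicle, and the 10 genes of most alike profile; a few more genes were named for their role after their values were seen (CSF1, IL34, SYK, PTPRC, C1R, CX3CR1, CD74, HBA2, S100A8 and S100A9), and not every gene the rule allows is printed. Symbols came from the authors' tables only. Promoters and gene order are from RefSeq (GRCr8), matched by rat symbol; 6 of 10 promoters matched, and the deposited counts use another build. Intervals and floors cover counting error or spread between these libraries only.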

Additional observations from a re-analysis of the deposited data

How the results depend on the processing

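No result for the 10 genes passed edgeR's adjusted threshold with the settings reported above, and the count of all genes called depended on the tool and the filter. Genes called between vehicle and WT numbered 10, and 560 with DESeq2, 774 with no filter on low counts, 4 with a replicate block, 4 with age as a covariate, 4 with only the 2 groups compared and 1 to 530 when a library was left out (530 without vehicle replicate 1). Between AC1903 and vehicle they numbered 0, and 67 with DESeq2, 114 with no filter, 2 with a replicate block, 1 with age as a covariate and 0 to 4 when a library was left out. Between AC1903 and WT they numbered 5, and 181 with DESeq2, 464 with no filter, 21 with only the 2 groups compared and 1 to 25 when a library was left out. With no filter, edgeR called EMR1, CSF1R, TYROBP and FCER1G between AC1903 and vehicle (adjusted p = 0.00236, 0.00253, 0.000921 and 0.0162), and EMR1 and CSF1R between AC1903 and WT (adjusted p = 0.00609 and 0.0139). The cause of these differences was not tested.

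The median log2 change of the 10 genes ran from -0.585 to 0.183 for vehicle against WT, from 0.5345 to 1.093 for AC1903 against vehicle and from 0.3134 to 0.8944 for AC1903 against WT when a library was left out. Scaled by the pan-leukocyte genes it was 0.365, -0.7484 and -0.3867. Leaving out a library gave 0 to 5, 7 to 10 and 3 to 10 genes higher without overlap in the same order of comparisons. Of all genes tested 31% to 37%, 33% to 36.2% and 33.8% to 39.3% were so. This count, and that of genes at an unadjusted p under 0.05, were run without each library after the data were seen. A left-out library leaves its group with 1 sample, which is assumed to vary like the others.

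Between vehicle and WT, leaving out a library gave log2 changes from -0.5685 to 0.07648 for EMR1, -0.8115 to 0.3066 for FCER1G, -0.9071 to 0.4247 for CD68, -0.2756 to 0.06582 for CD14, -0.7497 to 0.3331 for AIF1, -0.6015 to 0.4915 for C1QA, -0.672 to 0.1482 for C1QB and -0.4593 to 0.2178 for C1QC; each was above 0 without WT replicate 2. With age as a covariate CD14 stood at 0.2252 and C1QA at 0.06427, and between AC1903 and vehicle C1QA stood at -0.08659. AIF1 ran from -0.1095 to 0.4974 between AC1903 and vehicle. Between AC1903 and WT the ranges were -0.4506 to 0.6421 for C1QA, -0.4853 to 0.5965 for AIF1, -0.09058 to 0.729 for C1QB and -0.08888 to 0.5831 for C1QC. In that comparison C1QA stood at 0.01025 with DESeq2, 0.06347 with limma-voom, 0.009102 with DESeq2 size factors and 0.01239 with a filter of 5 CPM in 2 libraries. CD68 did not pass that filter and has no value there.

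With a replicate block, AIF1 stood at 0.007495 and C1QA at 0.05716 between AC1903 and WT, and the block changed no call among the 10 genes. Rats of the same number had the same age only in WT and vehicle replicate 1, and same-numbered libraries' deviations from the group means correlated at -0.0203 (WT and vehicle), -0.0409 (vehicle and AC1903) and 0.00458 (WT and AC1903), so the numbers were not taken to pair the samples.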
